A study of Mus musculus with 10 samples.

Results

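Kinesins are motor proteins that burn ATP to walk along microtubules, or to take microtubules apart from their ends. Some build the mitotic spindle, move chromosomes and pinch the midbody during cell division, some run inside cilia, and others carry vesicles and organelles, most famously along axons. In the airway, ciliated epithelial cells hold the motile cilia, while dividing cells of any type switch on the mitotic motors for a short part of each cycle. The kinesin genes measured here were those whose symbol is Kif or Kifc followed by a number and any letter in the array's annotation, and their value was the mean log2 intensity of the probe sets naming that symbol alone. The rule found 41 genes among 22180 tested, read by 44 probe sets. By textbook roles, 14 were placed with mitosis, 9 with cilia and centrioles, 14 with transport and neurons, and 4 with other or several roles.

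The exposed group was 5 mice that had breathed 235 ppm of chlorine for 1 hr with the whole body in the gas, and whose tracheas were taken 4 days afterwards. The other group was 5 mice that had breathed no chlorine. All 10 were male FVB/NJ mice of 9 weeks, each with 1 array. Tissue lying under the tracheal epithelium was lifted from stained frozen sections with a laser, and the sections of a mouse were combined. The arrays are therefore a mixture of the cell types in the tissue lifted, and epithelial transcripts were among those read.

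Epithelial transcripts were present in tissue labelled as subepithelial mesenchyme. The mean of 6 pan-epithelial markers (Epcam, Cdh1, Krt8, Krt18, Krt19 and Cldn7) lay between 8.27 and 9.26 in exposed mice and between 8.68 and 9.14 in unexposed mice on the log2 scale. Fibroblast markers, 6 genes with Col1a1 and Pdgfra among them, averaged 9.89 to 10.6 in exposed mice and 9.58 to 9.93 in unexposed mice. Exposed arrays were less alike than unexposed ones, with Pearson's r across genes of 0.947 to 0.983 among exposed and 0.982 to 0.986 among unexposed arrays. Array medians ran from 5.10 to 5.18, and no limit of detection came with the values, so low levels cannot be called absent. In bulk tissue, fewer cells of a type and less RNA per cell cannot be told apart.

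Chlorine-exposed tissue held more transcript of nearly all mitotic kinesins, less of the ciliary motors Kif9, Kif19a and Kif27, and less of the transport motors Kif21a and Kif13b. Of the 14 mitotic kinesins 12 were called higher and 0 lower, by limma over all genes at an adjusted p under 0.05, where 5.85% of all genes were called higher and 4.97% lower. Of the 9 ciliary kinesins 3 were called lower and 0 higher, and of the 14 transport kinesins 2 were called lower and 0 higher. None of the 4 others was called, and 24 of the 41 were not called in all. The median log2 change (exposed minus unexposed) was 1.40 for the mitotic kinesins, -0.27 for the ciliary, -0.20 for the transport and -0.12 for the other ones, against -0.00348 for all genes tested. Signs were uneven too, with changes below 0 for 13 of 14 transport kinesins and 8 of 9 ciliary ones. Of the mitotic ones 13 of 14 were above 0, and of all 22180 genes 11217 were below 0. In all, 12 transport and 6 ciliary kinesins were not called, and all genes were read in the same 10 mice. These class figures are descriptions, and only the single genes were tested. Asking also for a 2-fold change left 10 kinesins higher and 3 lower, with 3.43% of all genes called in either direction. Testing against a 1.2-fold change left 11 higher and 1 lower (3.83% of all genes), and an adjusted p under 0.01 left 12 higher and 1 lower (4.75%).

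**Figure D1:**
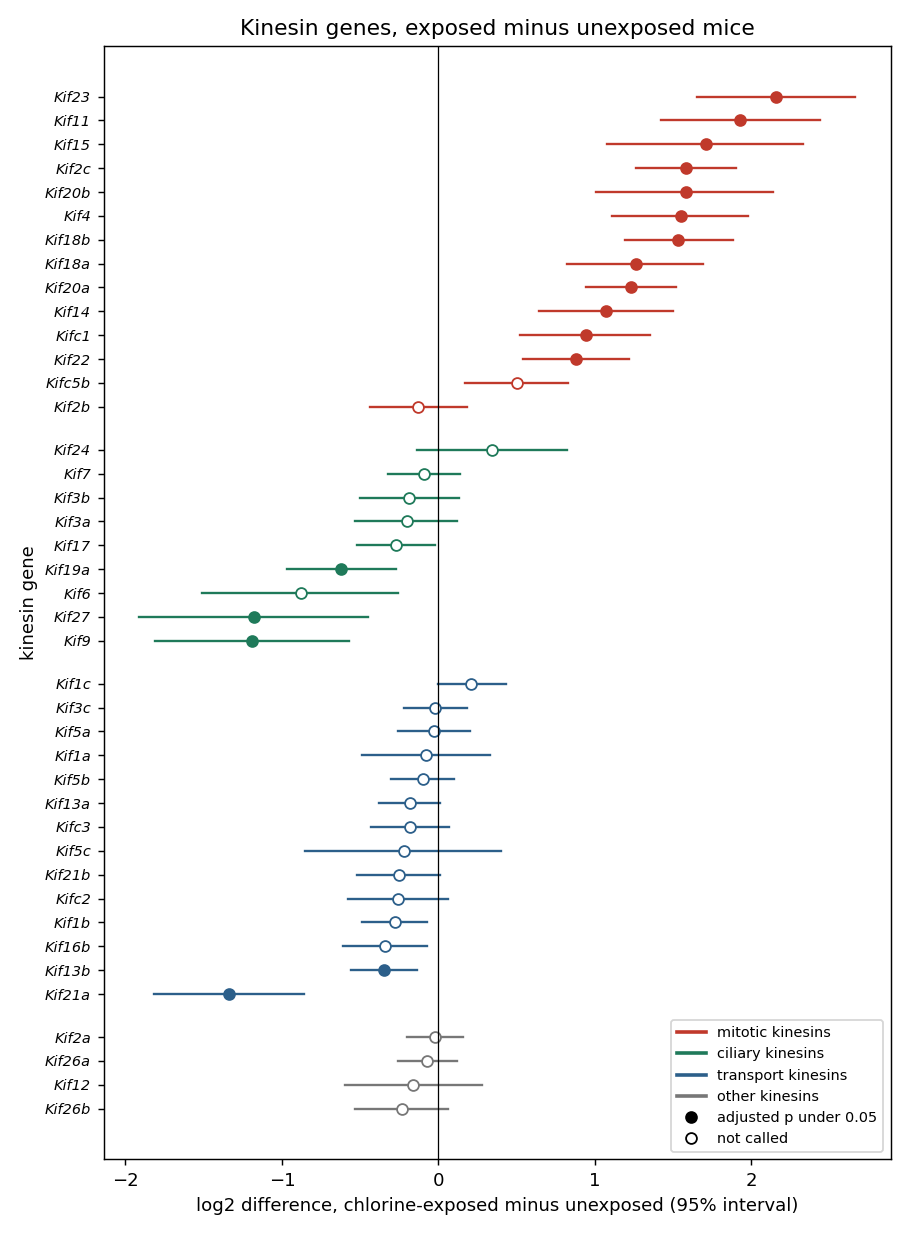
The log2 difference between exposed and unexposed mice is plotted for each of the 41 kinesin genes with its 95% interval from limma, grouped and coloured by class, with filled points where the adjusted p was under 0.05. The 12 filled mitotic points lie between 0.88 and 2.16, while Kif21a and the ciliary genes Kif9, Kif27 and Kif19a lie furthest below 0 among the filled points of the other classes.

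The spindle motors came up strongly. Kif11, the motor known as Eg5 that pushes spindle poles apart, had log2 values of 6.54, 7.0, 6.22, 6.91 and 7.53 in exposed mice 1 to 5, against 5.17, 5.20, 4.68, 5.03 and 4.48 in unexposed mice 1 to 5. Every exposed mouse was above every unexposed mouse, by a mean factor of 3.81 (log2 change 1.93, SE 0.23, adjusted p = 0.0004). Kif15, which binds the spindle factor Tpx2 and can hold a bipolar spindle when Kif11 is blocked, had 5.45, 6.38, 5.28, 5.81 and 7.04 in exposed mice, against 4.42, 4.48, 4.22, 4.25 and 4.07 in unexposed mice. Its groups did not overlap either, the rise was 3.27-fold (log2 change 1.71, SE 0.29, adjusted p = 0.00291), and the exposed mice were spread more widely (SD 0.72) than the unexposed ones (SD 0.17). Kifc1, a motor that walks to the minus end and cross-links spindle microtubules, had 4.74, 5.50, 4.80, 5.10 and 5.53 in exposed mice, against 4.43, 4.18, 3.95, 3.89 and 4.53 in unexposed mice. It rose 1.92-fold (log2 change 0.94, SE 0.19, adjusted p = 0.00848), without overlap. Kifc5b is a close paralog of Kifc1 whose transcripts may share probes with it, and the values of both are uncertain. Kifc5b had 5.12, 5.29, 5.32, 5.36 and 5.36 in exposed mice, against 5.01, 4.99, 4.87, 4.18 and 4.90 in unexposed mice. These groups did not overlap, yet the difference was not called (log2 change 0.50, SE 0.15, adjusted p = 0.0572), except without unexposed mouse 4, the low one (0.35, adjusted p = 0.0458).

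Motors that act on chromosomes and on microtubule plus ends were higher as well. Kif2c, the depolymerase at centromeres that helps correct wrong attachments, had 5.80, 6.33, 5.74, 6.18 and 6.36 in exposed mice, against 4.36, 4.35, 4.44, 4.65 and 4.72 in unexposed mice. With tight groups and a 2.99-fold rise (log2 change 1.58, SE 0.15), it had the smallest adjusted p of the family, 8.46e-05. Kif18a, which damps the swings of chromosomes at the metaphase plate, had 5.51, 6.17, 5.70, 5.94 and 6.59 in exposed mice, against 4.93, 4.58, 4.36, 5.02 and 4.75 in unexposed mice. The rise was 2.39-fold (log2 change 1.26, SE 0.20, adjusted p = 0.00208), again without overlap. Kif18b, a relative that works on astral microtubules, had 5.72, 6.45, 5.85, 6.23 and 6.48 in exposed mice, against 4.80, 4.59, 4.58, 4.39 and 4.70 in unexposed mice. It rose 2.90-fold (log2 change 1.53, SE 0.16, adjusted p = 0.000153). Kif22, or Kid, which binds DNA and pushes chromosome arms outwards, had 6.08, 6.01, 6.11, 6.27 and 6.69 in exposed mice, against 5.14, 5.06, 5.55, 5.60 and 5.40 in unexposed mice. Its 1.84-fold rise was the smallest of the 12 called (log2 change 0.88, SE 0.15, adjusted p = 0.00384). Kif4, which sits on chromosome arms and later sets the length of the central spindle, had 6.34, 6.68, 5.81, 6.31 and 7.05 in exposed mice, against 5.10, 4.94, 4.92, 4.63 and 4.86 in unexposed mice. That was a 2.92-fold rise (log2 change 1.55, SE 0.20, adjusted p = 0.000579). The pseudogene Kif4-ps, which is outside the rule, had a log2 difference of -0.28 (SE 0.14, adjusted p = 0.229).

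The motors of the spindle midzone and of cytokinesis included the largest rise in the family. Kif23, the motor subunit of centralspindlin, had 7.44, 8.01, 6.89, 7.72 and 8.06 in exposed mice, against 5.60, 5.77, 5.38, 5.68 and 4.91 in unexposed mice. The lowest exposed mouse was still above the highest unexposed one, and the rise was 4.46-fold (log2 change 2.16, SE 0.23, adjusted p = 0.000198). Kif20a, which brings the chromosomal passenger complex to the midzone, had 6.51, 6.83, 6.63, 6.62 and 6.84 in exposed mice, against 5.61, 5.44, 5.03, 5.70 and 5.50 in unexposed mice. It rose 2.35-fold (log2 change 1.23, SE 0.13, adjusted p = 0.000192), with the least spread among exposed mice of the 12 called (SD 0.14). Kif20b, a midbody motor, had 5.96, 7.16, 6.49, 6.54 and 7.41 in exposed mice, against 5.27, 5.37, 4.63, 5.42 and 4.97 in unexposed mice. Its rise was 2.98-fold (log2 change 1.58, SE 0.26, adjusted p = 0.00256). Kif14, which binds Prc1 and citron kinase at the midbody, had 5.48, 6.05, 5.27, 5.55 and 6.10 in exposed mice, against 4.76, 4.11, 4.70, 4.96 and 4.55 in unexposed mice. It was 2.10-fold higher (log2 change 1.07, SE 0.20, adjusted p = 0.00485). The exception to the class was Kif2b, a microtubule depolymerase chiefly of testis in mice, with 3.92, 4.07, 3.87, 3.94 and 4.17 in exposed mice and 3.87, 3.88, 4.38, 3.98 and 4.52 in unexposed mice. Its groups overlapped and it was not called (log2 change -0.13, SE 0.14, adjusted p = 0.638).

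**Figure D2:**
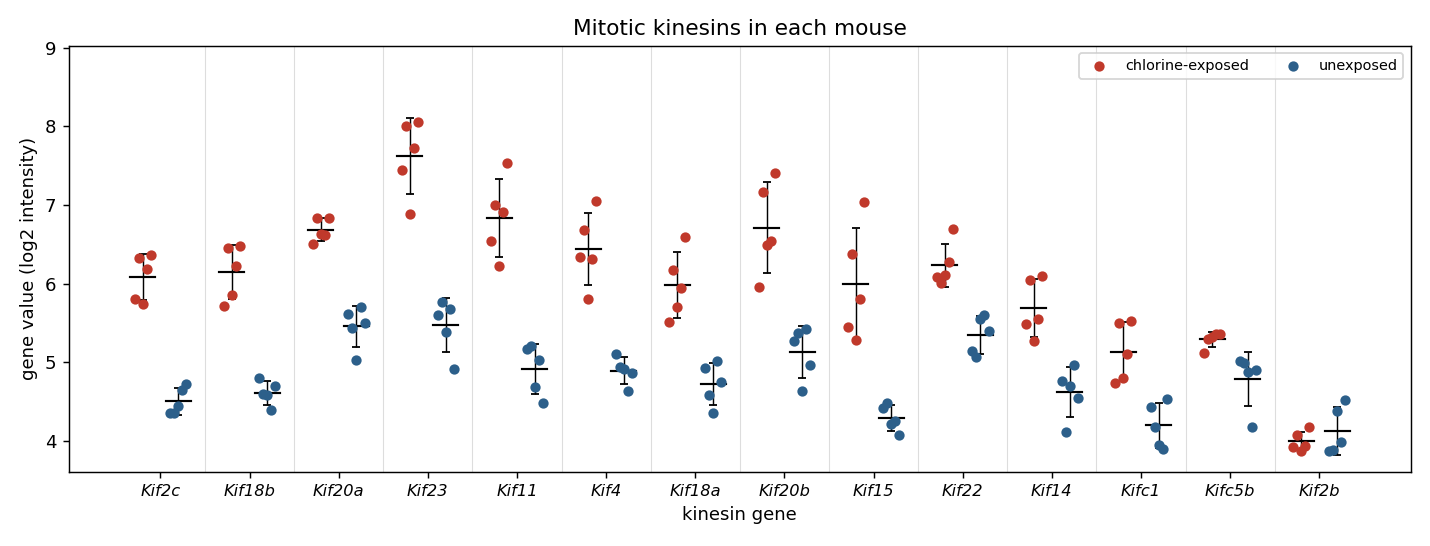
Each point is 1 mouse, with the gene value as log2 intensity on the vertical axis and the 14 mitotic kinesins along the horizontal one, exposed mice left and unexposed mice right of each pair, and bars for the mean and SD. All exposed points are above all unexposed points for 13 of the genes, and the 2 groups overlap for Kif2b.

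Exposed and unexposed values were fully apart for 13 of the 14 mitotic kinesins, all higher in exposed mice, while 5.89% of all genes tested had such a gap upwards. Every one of the 12 calls held in all 10 fits that left out 1 mouse. With the mean of ciliated cell markers as a covariate, a fit chosen once the data had been seen, 6 of the 12 passed. The other 6 kept log2 changes of 0.69 (Kif22) to 1.53 (Kif15), against 0.88 and 1.71 for these genes without the covariate, and their standard errors were larger (0.21 and 0.41, against 0.15 and 0.29). With the mean of the pan-epithelial markers as covariate, also chosen then, all 12 passed. The exposed mice kept much the same order over these genes. Exposed mouse 5 had the highest value of its group for 12 of the 12 called mitotic kinesins, whereas it was the highest exposed mouse for 30.6% of the 1298 genes called higher. This was not particular to the kinesins. The same mouse was highest for 11 of the 15 called partner genes described below, and in the mean of the proliferation markers (8.57). The lowest exposed value belonged to exposed mouse 3 for 6 of the 12, to exposed mouse 1 for 5 and to exposed mouse 2 for 1. The mean of the 14 genes was 5.76, 6.28, 5.71, 6.03 and 6.52 in exposed mice 1 to 5, and 4.89, 4.78, 4.69, 4.81 and 4.78 in unexposed mice 1 to 5.

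Genes that work with these motors moved with them. Of 16 listed partners 15 were called higher and 0 lower, with a median log2 change of 1.72, where 5.85% of all genes were called higher. Birc5, the survivin subunit of the passenger complex, was 5.20-fold higher (log2 change 2.38, SE 0.29, adjusted p = 0.00041). The spindle protein Hmmr rose 4.76-fold (log2 change 2.25, SE 0.27, adjusted p = 0.000377). Cenpe, a kinetochore kinesin whose symbol is outside the rule, had 6.82, 7.60, 6.87, 7.39 and 7.75 in exposed mice, against 5.14, 5.27, 5.59, 5.41 and 5.11 in unexposed mice. It was 3.95-fold higher (log2 change 1.98, SE 0.19, adjusted p = 0.000106). The partner not called was citron kinase, Cit (log2 change 0.38, SE 0.13, adjusted p = 0.0886), which was named after its value was seen. Dynein walks the other way along microtubules, and of 7 genes for cytoplasmic dynein and its spindle regulators only Spag5, a spindle protein also called astrin, was called (log2 change 1.36, SE 0.15, adjusted p = 0.000241).

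General markers of dividing cells and of several cell types differed beside the mitotic kinesins. All 6 measured proliferation markers, Mki67, Top2a, Ccna2, Cdk1, Mcm2 and Pcna, were called higher, and their mean was 7.86 to 8.57 in exposed mice, against 6.18 to 6.44 in unexposed mice. Among 5 measured basal and squamous epithelium markers 3 were called higher (list mean 8.26 to 9.91 in exposed, 6.51 to 7.57 in unexposed mice). They were Krt14, Krt6a and Dsg3 (log2 changes 4.31, 5.32 and 3.96). Trp63 and Krt15 were not called, with changes of -0.4 and -0.52. Among 8 macrophage and leukocyte markers 3, Cd68, Adgre1 and Itgam, were called higher (6.93 to 7.79 in exposed, 6.67 to 7.24 in unexposed mice). Of those not called, Lyz2 (-0.34) and Cd3e (-0.89) had changes below 0, and Ptprc, Csf1r and Cd79a above it. Among 6 fibroblast markers 3 were called higher. Of 6 cartilage markers 1, Matn1, was called lower (log2 change -1.56, SE 0.36, adjusted p = 0.0187), with a list mean of 5.92 to 8.24 in exposed mice and 7.39 to 8.59 in unexposed mice. None of 6 muscle markers was called (8.43 to 8.91 in exposed, 8.23 to 9.01 in unexposed mice). Over all genes tested, 5.85% were called higher and 4.97% lower. The part of each cell type in the rise of the mitotic kinesins was not tested.

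Mitotic genes commonly carry, close to the start of transcription, CCAAT boxes and a cell cycle homology region, TTTGAA, the element through which they are kept silent in resting cells. Both were searched on both strands in the RefSeq promoter windows of build GRCm38.p6, which run from 250 bases before each annotated start to 50 after it. Windows were at hand for 33 of the 41 kinesins, 11 of them called mitotic ones. TTTGAA stood in 10 of these 11 windows, in 17.9% of the 32851 windows of all genes, in 1 of 9 windows of ciliary kinesins and in 2 of 15 windows of transport and other kinesins. CCAAT was found in 7 of the 11, in 37.4% of all windows, in 5 of the 9 ciliary windows and in 3 of the 15. Both letter strings were present together in 7 of the 11 windows of called mitotic kinesins and, with TTCGAA counted as well as TTTGAA, in 7.52% of all windows. On that count they were together in 2 of the 9 ciliary windows and in 1 of the 15. The 2 ciliary windows were those of Kif24, with TTCGAA, and of Kif27, the ciliary kinesin with TTTGAA, which was called lower. Kif18a was the called mitotic kinesin with neither string in its window. Of the mitotic kinesins not called, Kifc5b had both strings and Kif2b had CCAAT without TTTGAA. The called mitotic windows were richer in G and C than all windows (median 60.7% against 52.7%). A match of this kind is a description of letters and not a tested binding site.

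The 8 called mitotic kinesins with TTTGAA within 60 bases before to 30 bases after the start are shown over that span, chosen after the matches were seen, with Kif9, a ciliary kinesin called lower, for contrast. Of all windows 4.62% have TTTGAA in this span. Kif27, also ciliary and called lower, is not shown. It has TTTGAA 191, 89 and 73 bases before the start, outside this span. Sequences read 5′ to 3′ along the gene, and capitals mark TTTGAA or CCAAT on either strand (TTCAAA and ATTGG when on the other strand), and in Kif9 the letters GTTGCC, part of the X-box, the element bound by the RFX factors of ciliary genes.
Kif11: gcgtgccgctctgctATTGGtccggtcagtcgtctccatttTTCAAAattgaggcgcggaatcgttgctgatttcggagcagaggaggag
Kif22: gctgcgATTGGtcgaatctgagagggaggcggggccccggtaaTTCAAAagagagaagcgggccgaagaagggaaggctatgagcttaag
Kif18b: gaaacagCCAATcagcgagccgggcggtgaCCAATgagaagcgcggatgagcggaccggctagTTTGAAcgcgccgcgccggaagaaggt
Kif15: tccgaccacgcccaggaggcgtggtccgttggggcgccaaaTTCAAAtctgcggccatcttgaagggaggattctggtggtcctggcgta
Kif23: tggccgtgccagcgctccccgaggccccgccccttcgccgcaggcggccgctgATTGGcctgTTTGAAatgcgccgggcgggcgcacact
Kif4: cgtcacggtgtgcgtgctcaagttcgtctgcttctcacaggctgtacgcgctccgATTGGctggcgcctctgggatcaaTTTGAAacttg
Kif20b: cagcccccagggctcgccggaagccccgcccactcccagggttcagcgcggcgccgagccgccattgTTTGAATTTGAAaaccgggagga
Kifc1: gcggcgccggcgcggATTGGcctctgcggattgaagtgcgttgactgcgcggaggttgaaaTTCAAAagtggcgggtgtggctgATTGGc
Kif9: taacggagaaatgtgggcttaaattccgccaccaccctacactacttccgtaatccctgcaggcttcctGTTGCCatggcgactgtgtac
The spans are, in the same order, chr19:37376322-37376411 (plus strand), chr7:127042391-127042480 (minus strand), chr11:102925095-102925184 (minus strand), chr9:122951021-122951110 (plus strand), chr9:61946770-61946859 (minus strand), chrX:100626005-100626094 (plus strand), chr19:34922298-34922387 (plus strand), chr17:33890604-33890693 (minus strand) and chr9:110476898-110476987 (plus strand). In Kif11 and Kif22 a CCAAT box lies 45 and 54 bases before the start and the TTTGAA string 19 and 17 bases before it. Kif20b carries a pair of adjoining TTTGAA strings just after the start. GTTGCC was present in 5 of 9 windows of ciliary kinesins (both windows of Kif9 among them), in 2 of 11 called mitotic ones, in 4 of 15 transport and other ones and in 12.5% of all windows.

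Kinesins of motile cilia were lower in exposed tissue, unevenly across the exposed mice. Kif9, a motor of the ciliary axoneme, had log2 values of 6.23, 5.80, 4.40, 5.40 and 5.09 in exposed mice 1 to 5, against 6.76, 6.58, 6.22, 6.80 and 6.51 in unexposed mice 1 to 5. Exposed mouse 1 reached the lowest unexposed mouse, and the others lay below, for a 2.28-fold lower mean (log2 change -1.19, SE 0.28, adjusted p = 0.0206). Kif27, of motile cilia and a binding partner of the kinase Stk36, had 6.31, 5.69, 4.53, 4.79 and 4.47 in exposed mice, against 6.57, 6.10, 6.03, 6.77 and 6.22 in unexposed mice. Exposed mouse 1 was above 3 of the unexposed mice, and the mean was 2.27-fold lower (log2 change -1.18, SE 0.33, adjusted p = 0.0426). Its 2 probe sets gave -0.84 (adjusted p = 0.0487) and -1.53 (adjusted p = 0.0472). Kif19a, which trims microtubule ends at the ciliary tip and so limits cilium length, had 5.58, 5.45, 5.09, 4.96 and 5.42 in exposed mice, against 5.88, 5.88, 5.71, 6.39 and 5.74 in unexposed mice. It was the ciliary kinesin whose groups did not overlap, and it was 1.54-fold lower (log2 change -0.62, SE 0.16, adjusted p = 0.0285). Kif6, an axonemal relative of Kif9, had 6.76, 6.01, 5.30, 5.27 and 5.15 in exposed mice, against 6.80, 6.41, 6.24, 6.96 and 6.51 in unexposed mice. It was not called with all mice (log2 change -0.88, SE 0.29, adjusted p = 0.0751), and was without exposed mouse 1 (-1.15, adjusted p = 0.00397).

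These 4 genes, grouped after their values were seen, shared an order among the exposed mice, with exposed mouse 1 the highest for all 4 and exposed mouse 3, 4 or 5 the lowest. Exposed mouse 1 was also the highest exposed mouse for 52.7% of the 1102 genes called lower. Ciliary calls rested on few mice. Over the 10 fits with a mouse left out, the adjusted p of Kif9 ran from 0.00392 to 0.0536, missing the threshold when exposed mouse 5, unexposed mouse 1 or unexposed mouse 4 was absent. That of Kif19a ran from 0.0186 to 0.0678, missing it when exposed mice 3 or 4, or unexposed mice 1, 2 or 4, were absent. Kif27 passed in 2 of these fits, where exposed mouse 1 or exposed mouse 2 was absent (0.00362 to 0.1). The count of ciliary kinesins called lower was 1 without exposed mouse 3, 4 or 5 or unexposed mouse 2 and 0 without unexposed mouse 1 or 4. With exposed mice 1 and 3 both left out, a setting chosen once the data had been seen, 4 were called lower.

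Primary and other cilia share a different set of motors, none of which was called. Kif3a, a subunit of the heterotrimeric motor that carries cargo to the ciliary tip, had 7.21, 7.22, 6.56, 6.81 and 6.51 in exposed mice and 6.99, 7.10, 7.05, 7.08 and 7.10 in unexposed mice. The exposed values straddled the narrow unexposed range (SD 0.34 against 0.05), and the difference was not called (log2 change -0.20, 95% interval -0.53 to 0.12, adjusted p = 0.457). Its partner Kif3b had a log2 difference of -0.19 (95% interval -0.50 to 0.13, adjusted p = 0.491), and the third subunit, Kifap3, one of -0.35 (SE 0.11, adjusted p = 0.0563), which passed without exposed mouse 1 (adjusted p = 0.018). Kif17, a homodimeric motor of cilia and dendrites, had 4.56, 4.75, 4.52, 4.56 and 4.22 in exposed mice and 4.70, 4.96, 4.59, 4.84 and 4.85 in unexposed mice, and was not called (log2 change -0.27, SE 0.11, adjusted p = 0.176). Kif7, the regulator of hedgehog signalling at the ciliary tip, had a log2 difference of -0.09 (95% interval -0.32 to 0.14, adjusted p = 0.659). None of the 6 hedgehog partners listed, Smo, Ptch1, Sufu, Gli1, Gli2 and Gli3, was called, and their median log2 change was -0.07. Ptch1, named after its value was seen, came nearest (-0.34, SE 0.11, adjusted p = 0.07) and passed without exposed mouse 1 (adjusted p = 0.0222). Kif24, a depolymerase on the mother centriole that holds back cilium formation, was the ciliary gene with a change above 0. It had 6.18, 5.92, 4.80, 5.73 and 5.44 in exposed mice and 5.13, 5.24, 5.31, 5.55 and 5.13 in unexposed mice. All exposed mice but mouse 3 lay at or above most unexposed ones, and of the 10 fits with a mouse left out the difference was called in the one without that mouse (log2 change 0.55, adjusted p = 0.0455, against 0.34 and adjusted p = 0.389 with all mice).

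**Figure D3:**
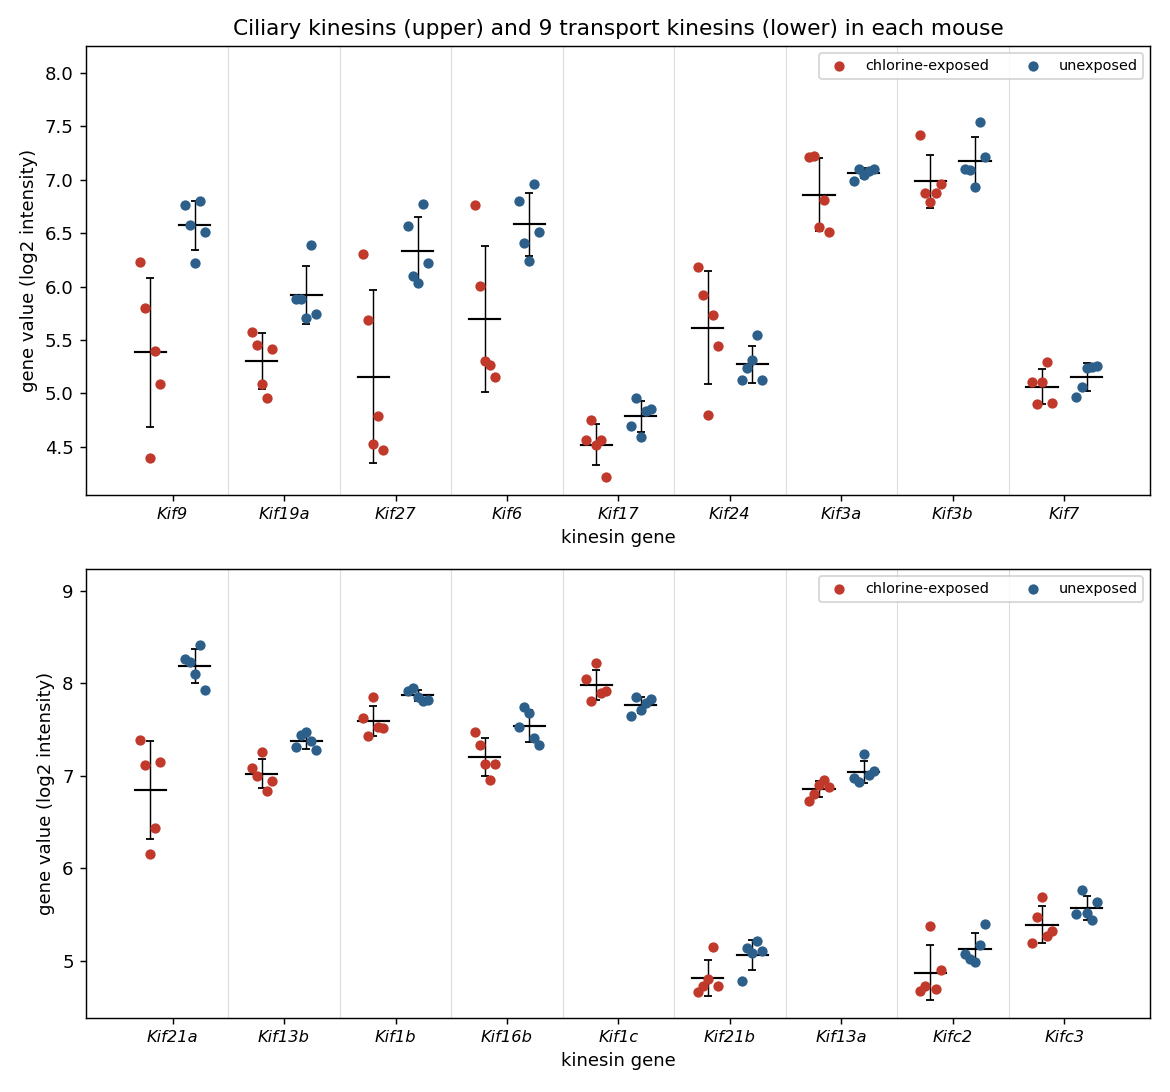
Gene values as log2 intensity (vertical axis) are plotted per mouse for the 9 ciliary kinesins (upper panel) and the 9 transport kinesins with the smallest p (lower panel), exposed mice left and unexposed mice right of each pair, with mean and SD. The exposed mice are spread widely for Kif9, Kif27 and Kif6, and Kif19a, Kif21a and Kif13b are the genes whose groups do not overlap.

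Other genes of the cilium were lower too, in a comparison that called 4.97% of all genes lower. Of 11 measured axoneme genes 8 were called lower and 0 higher (median log2 change -2.0), led by Dnah5, an outer arm dynein heavy chain (-3.01, SE 0.66, adjusted p = 0.0135), and Cfap44 (-2.74, SE 0.77, adjusted p = 0.0427). Of 19 intraflagellar transport genes 5 were called lower and 0 higher (median -0.35), with Ift81 (-0.98, SE 0.25, adjusted p = 0.0283) and Ift57 (-0.97, SE 0.28, adjusted p = 0.047) in front. Of these 4 genes Dnah5 alone passed in all 10 fits with a mouse left out, where the adjusted p reached 0.0913 for Cfap44, 0.0724 for Ift81 and 0.111 for Ift57. None of 4 measured genes of the centriole cap was called. Of 9 measured ciliated cell markers 2, Sntn and Cdhr3, were called lower. Foxj1, also listed, was not called (log2 change -1.37, SE 0.52, adjusted p = 0.127). The mean of all 9 was 8.43, 7.96, 5.10, 6.70 and 5.20 in exposed mice 1 to 5 and 8.40 to 8.95 in unexposed mice. With that mean as a covariate, a fit chosen after the data were seen, the log2 differences were -0.34 (SE 0.19, adjusted p = 0.428) for Kif9, -0.17 (SE 0.20, adjusted p = 0.752) for Kif27 and -0.08 (SE 0.23, adjusted p = 0.912) for Kif6. In the same fit Kif19a had a log2 difference of -0.41 (SE 0.21, adjusted p = 0.388), Kif24 one of 0.95 (SE 0.18, adjusted p = 0.0185) and Kif23 one of 2.31 (SE 0.33, adjusted p = 0.0038). Ciliated marker level and exposure are related in these mice, so the fit cannot fully separate them. With the pan-epithelial mean as covariate instead, Kif9 (-1.16, SE 0.19, adjusted p = 0.00279), Kif27 (-1.16, SE 0.30, adjusted p = 0.0284) and Kif19a (-0.61, SE 0.14, adjusted p = 0.0181) all passed.

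Among the transport kinesins Kif21a and Kif13b were called lower, and the other 12 were not called. Kif21a, a motor of axons that also restrains microtubule growth at the cell cortex, had log2 values of 7.39, 7.11, 6.15, 6.43 and 7.15 in exposed mice 1 to 5, against 8.26, 8.23, 8.10, 8.41 and 7.93 in unexposed mice 1 to 5. No exposed mouse reached an unexposed one, and the mean was 2.53-fold lower (log2 change -1.34, SE 0.22, adjusted p = 0.00262). That was the largest fall in the family, and its call held in all 10 fits that left out 1 mouse (adjusted p 0.00117 to 0.00959). With the ciliated marker mean as covariate its log2 difference was -0.92 (SE 0.27, adjusted p = 0.099), and with the pan-epithelial mean -1.32 (SE 0.15, adjusted p = 0.000311). Kif13b, which carries membrane proteins along microtubules, had 7.08, 7.0, 7.25, 6.83 and 6.94 in exposed mice, against 7.31, 7.44, 7.47, 7.37 and 7.28 in unexposed mice. Its groups were close but did not overlap, as was so downwards for 5.06% of all genes, and it was 1.28-fold lower (log2 change -0.35, SE 0.10, adjusted p = 0.039). The gene passed in 2 of the 10 fits, where exposed mouse 1 or exposed mouse 3 was absent (adjusted p 0.0158 to 0.0913), and it missed the threshold with array medians centred (adjusted p = 0.055).

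The next smallest p-values among the transport kinesins belonged to genes not called. Kif1b, a carrier of mitochondria and vesicles, had 7.62, 7.43, 7.85, 7.53 and 7.52 in exposed mice and 7.91, 7.95, 7.85, 7.81 and 7.82 in unexposed mice (a log2 change of -0.28, SE 0.10, adjusted p = 0.095). Exposed mouse 3 alone lay within the unexposed range, and without it the change was -0.34 (adjusted p = 0.0273). Kif16b, a motor of early endosomes, had 7.47, 7.33, 7.13, 6.95 and 7.13 in exposed mice and 7.53, 7.74, 7.68, 7.41 and 7.33 in unexposed mice (a log2 change of -0.34, SE 0.12, adjusted p = 0.109), and passed without exposed mouse 1 (adjusted p = 0.0498). Kif1c, a vesicle carrier, was the transport kinesin with a change above 0, at 8.05, 7.81, 8.22, 7.89 and 7.92 in exposed mice and 7.64, 7.85, 7.71, 7.78 and 7.83 in unexposed mice (a log2 change of 0.21, SE 0.10, adjusted p = 0.207). Kif21b, a relative of Kif21a found in neurons and lymphocytes, had 4.66, 4.72, 4.80, 5.15 and 4.73 in exposed mice and 4.78, 5.14, 5.08, 5.21 and 5.10 in unexposed mice (a log2 change of -0.25, SE 0.12, adjusted p = 0.226). Kif13a, Kifc2 and Kifc3 had log2 differences of -0.18, -0.26 and -0.18 (adjusted p 0.236, 0.308 and 0.381), and Kifc2 passed without exposed mouse 3 (adjusted p = 0.0466).

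Apart from Kif21a, the neuronal motors Kif1a, Kif5a, Kif5c, Kif3c and Kif21b were not called. Kif1a, which hauls synaptic vesicle precursors, had 5.32, 5.30, 5.89, 5.71 and 5.36 in exposed mice and 5.65, 5.30, 5.76, 5.16 and 6.11 in unexposed mice (log2 change -0.08, 95% interval -0.49 to 0.33, adjusted p = 0.851). The neuronal conventional kinesins Kif5a and Kif5c had log2 differences of -0.03 (95% interval -0.26 to 0.20, adjusted p = 0.906) and -0.22 (-0.85 to 0.40, adjusted p = 0.702), and Kif5b, the widely expressed form, one of -0.10 (-0.30 to 0.10, adjusted p = 0.572). Kif3c, a neuronal relative of Kif3b, had a log2 difference of -0.02 (-0.22 to 0.18, adjusted p = 0.918). Of 10 neuronal markers only Tubb3 was called, upwards, and their mean was 4.40 to 5.15 in exposed mice and 4.22 to 5.02 in unexposed mice. None of the 4 measured Schwann cell markers was called (list mean 6.04 to 6.91 in exposed, 6.62 to 6.91 in unexposed mice). The brightest of them, S100b, had a log2 change of -1.11 (SE 0.41, adjusted p = 0.118). Sox10, Mbp and Cdh19 had changes of 0.07, -0.17 and -0.25. Of 11 measured kinesin light chain and cargo adaptor genes 2 were called lower and 0 higher, the mitochondrial adaptor Trak1 (log2 change -0.54, SE 0.11, adjusted p = 0.00718) and Mapk8ip1, a scaffold that binds the light chains (-0.33, SE 0.09, adjusted p = 0.0436). Trak1 passed in all 10 fits with a mouse left out, and Mapk8ip1 missed the threshold in 9 of them (adjusted p 0.0372 to 0.105). Beside these list counts, 4.97% of all genes were called lower and 5.85% higher.

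The 4 remaining kinesins were not called. Kif2a, a depolymerase of spindle poles and growing neurites, had 8.43, 8.42, 8.37, 8.33 and 8.41 in exposed mice and 8.39, 8.44, 8.35, 8.57 and 8.31 in unexposed mice. Its change of -0.02 (95% interval -0.20 to 0.16, adjusted p = 0.903) stood beside the 2.99-fold rise of Kif2c, of the same family. Kif26b, a kinesin of another family known from the mesenchyme of the developing kidney, had 5.11, 5.35, 5.50, 5.33 and 5.33 in exposed mice and 5.36, 5.34, 5.38, 5.86 and 5.84 in unexposed mice (a log2 change of -0.23, SE 0.13, adjusted p = 0.325). Kif26a had a log2 difference of -0.07 (SE 0.09, adjusted p = 0.7) and Kif12, a kinesin of kidney and liver epithelium, one of -0.16 (SE 0.20, adjusted p = 0.69).

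Set against each other within each mouse, the classes separated the groups. The mitotic mean minus the ciliary mean was -0.39, 0.43, 0.48, 0.52 and 1.16 in exposed mice 1 to 5, and -1.21, -1.27, -1.23, -1.54 and -1.28 in unexposed mice 1 to 5. The mitotic mean minus the transport mean was -0.51, 0.07, -0.63, -0.26 and 0.30 in exposed mice, and -1.60, -1.73, -1.87, -1.63 and -1.78 in unexposed mice. For both differences the lowest exposed mouse lay above the highest unexposed one, and no test was made of them. The mitotic mean alone already separated the groups, at 5.71 to 6.52 in exposed mice and 4.69 to 4.89 in unexposed mice. The ciliary mean alone overlapped between the groups, at 6.15, 5.85, 5.23, 5.52 and 5.35 in exposed and 6.10, 6.05, 5.92, 6.35 and 6.06 in unexposed mice. The transport mean did not, at 6.21 to 6.34 in exposed mice and 6.45 to 6.56 in unexposed mice. Kif21a, with a log2 change of -1.34, enters this mean, while the class median was -0.20 and 12 of its 14 genes were not called. The gap is therefore not a trait of every transport kinesin, and a mean without Kif21a was not examined. Exposed mice 1 and 3, which had the lowest mitotic means of their group, differed in the ciliary mean, where mouse 1 was the highest and mouse 3 the lowest.

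**Figure D4:**
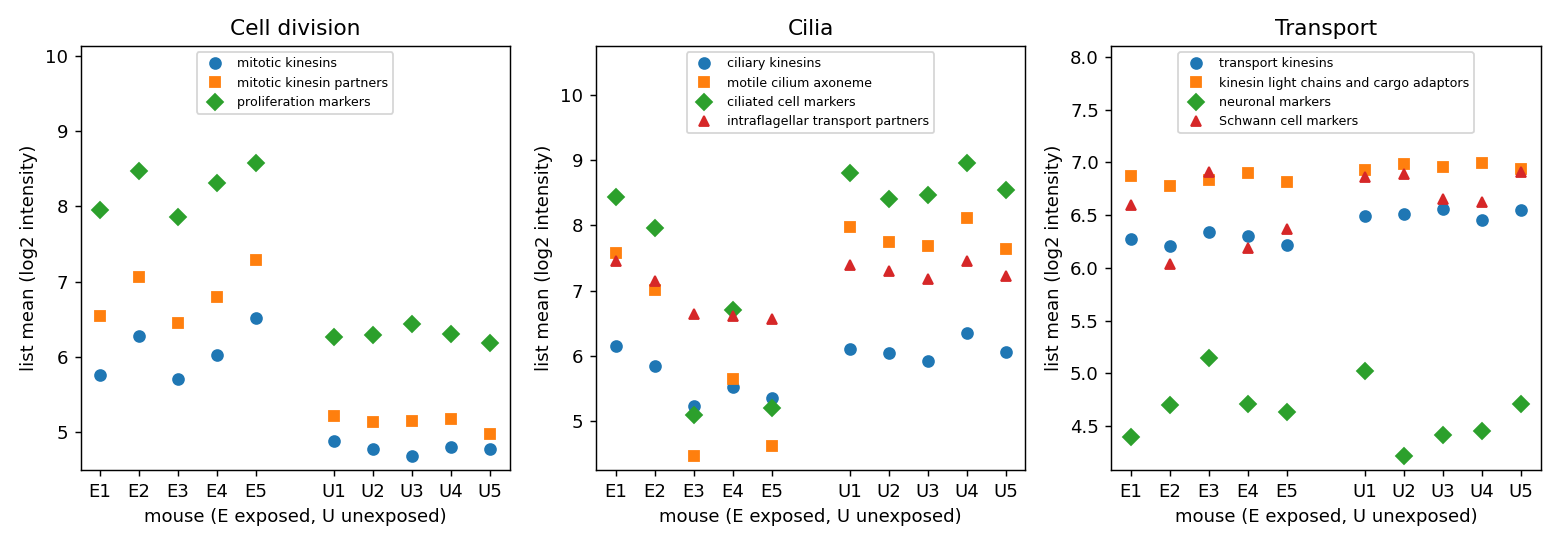
List means as log2 intensity (vertical axis) are plotted for each exposed mouse (E1 to E5) and each unexposed mouse (U1 to U5), for lists of cell division (left), cilia (middle) and transport (right). The mitotic kinesins, their partners and the proliferation markers are higher in all exposed mice, while the ciliated markers run from 5.10 to 8.43 in exposed mice and from 8.40 to 8.95 in unexposed mice.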

How the data were processed

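One Affymetrix array was run per mouse. The deposited values are log2 intensities per probe set; the submitters' processing notes name Partek 6.6 and RMA as the authors' tools, and the sources used here do not give the settings. Base 2 was assumed because RMA writes it and the value range allows it. Of 41345 probe sets 23521 name 1 symbol, 1814 several and 16010 none in the platform annotation. Probe sets naming 1 symbol were averaged into 22180 genes. Exposed and unexposed mice entered 1 two-sided linear model per gene without covariates (lmFit and eBayes of limma 3.58.1, R 4.3.3). Benjamini-Hochberg adjusted p-values over all genes called a gene when under 0.05. The limma script was tested on simulated data. The mice are separate animals. Precision is limited by the number of arrays.

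The members and lists were chosen with earlier results of these data known, among them the rise of mitosis genes, so the rise of the mitotic kinesins is not independent support for it. All called kinesins and up to 4 uncalled ones per class of smallest p are named with their values, and the remaining members are given shortly, by choice after their values were seen; partner lists name up to 2 rises and 2 falls of largest size, with Cenpe and Kifap3 always. Promoters were read from the RefSeq table of build GRCm38.p6, and those of 8 kinesins are not analysed here. Same-numbered mice did not deviate together (r of deviations -0.049 to 0.125), so the numbers were not taken as pairs. Alternatives are in the closing section. Python 3.11.15, pandas 2.3.3 and matplotlib 3.10.9 served for tables and figures.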

Additional observations from a re-analysis of the deposited data

Results flagged for a closer look

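In 4 of the 90 groups examined (41 kinesins and 4 class means in both groups), 1 mouse stood far from the other 4, by Dixon's criterion for 5 samples; chance gives about 1 in 20. Kif3b was at 7.42 in exposed mouse 1, with 6.79 to 6.96 in the other exposed mice. Kif21b was at 5.15 in exposed mouse 4, with 4.66 to 4.80 in the others. Unexposed mouse 4 held both remaining cases, Kif19a at 6.39 (5.71 to 5.88 in the other unexposed mice) and Kifc5b at 4.18 (4.87 to 5.01 in the others). Without unexposed mouse 4 the log2 change of Kif19a was -0.50 (adjusted p = 0.0551) and that of Kifc5b 0.35 (adjusted p = 0.0458).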

How the results depend on the processing

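Of the mitotic kinesins 12 or 13 were higher with each mouse left out in turn (also 12 or 13 over all kinesins), 11 against a 1.2-fold change and 10 with at least a 2-fold change. With only the genes above the median level tested, 6 were called of 6 such mitotic kinesins still in the test (6 over all kinesins). With the ciliated marker mean as covariate, 6 mitotic and 7 kinesins in all were higher, the other 6 mitotic ones at log2 changes of 0.69 to 1.53 with larger standard errors. With the pan-epithelial mean as covariate, the counts were as with no covariate (12 higher, 5 lower, 12 mitotic, 3 ciliary, 2 transport). Lower calls moved more. With 1 mouse left out, 1 to 7 kinesins were lower (5 with all mice), with 0 to 4 ciliary ones (3) and 1 to 4 transport ones called (2). Transport calls were 1 without exposed mouse 2, 4 or 5 or any 1 unexposed mouse, and 4 without exposed mouse 3. All lower calls were 2 without exposed mouse 4 or 5 or unexposed mouse 2, 3 without unexposed mouse 3 or 5, and 1 without unexposed mouse 1 or 4. With array medians centred, 1 transport kinesin was called. In the fit with a replicate block 3 kinesins were lower and 1 transport kinesin was called, Kif13b and Kif19a losing their calls; no mitotic call changed. At an adjusted p under 0.01, and also against a 1.2-fold change, 1 kinesin was lower, a transport one, and 0 ciliary. At least 2-fold, 3 were lower, 1 of them a transport kinesin. With the ciliated covariate 0 kinesins were lower, 0 of them ciliary or transport, and the transport median was -0.29. The ciliary median was -0.75 among genes above the median level. Class medians with 1 mouse left out ran from 1.29 to 1.47 (mitotic), -0.32 to -0.19 (ciliary), -0.24 to -0.17 (transport) and -0.18 to -0.06 (other). Signs turned, in no case with a call, with 1 mouse left out for Kif12 (-0.29 to 0.01), Kif2a (-0.05 to 0.02), Kif1a (-0.19 to 0.05), Kif5a (-0.09 to 0.01) and Kif3c (-0.07 to 0.00), without exposed mice 1 and 3 for Kif5a (0.06), and with the ciliated covariate for Kif3a (0.21), Kif3b (0.04) and Kif2a (0.01). The cause of these shifts was not tested, apart from the fewer genes left by the level filter. Low signals have no detection limit here.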
